A study of Avena sativa with 6 samples.

Results

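The genes of abscisic acid (ABA) synthesis, breakdown and signalling were described in oat grains after the ear had been shaded. They were the rows of the expression table whose KEGG text held 1 of 8 entries, namely NCED, ABA2, AAO3, CYP707A, PYL, PP2C, SnRK2 or ABF. The rule took 221 of 136488 genes and used no measured value. RNA came from peeled seeds of the high-oil cultivar BY9 (Baiyan No.9), an allohexaploid oat. In the ear-shaded group (3 libraries) the ear was shaded for 4 days after flowering, and in the unshaded group (3 libraries) it was not. The labels give no other treatment. They leave unsaid whether each library had its own plants, so the spread behind every p-value is that between libraries and may be technical. The comparison addresses how covering the ear alters gene expression in the developing grain.

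ABA is a carotenoid-derived hormone that governs seed maturation, dormancy and the response to water loss. NCED cleaves 9-cis-epoxycarotenoids to xanthoxin, ABA2 oxidises xanthoxin to abscisic aldehyde, and AAO3 oxidises that to ABA. CYP707A hydroxylates ABA and so starts its breakdown. ABA bound to a PYL receptor inhibits clade A PP2C phosphatases, which frees SnRK2 kinases to phosphorylate ABF-type bZIP transcription factors, the family of ABI5. The KEGG entries for PP2C and SnRK2 are broader than this core, since clade A phosphatases and certain SnRK2 subclasses carry the ABA response.

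Levels are in FPKM, fragments scaled to gene length and to the library, so genes can be set against each other. Depth is unknown. Library sums lay between 493004.4 and 561771.7 FPKM, and the 221 genes held between 0.0719% and 0.103% of that sum. The correlation over genes averaging at least 1 FPKM was 0.9891 between ear-shaded replicates 1 and 2 and between 0.9495 and 0.965 for the other pairs of a group. Over the 103 of the 221 genes at that level, the median absolute log2 difference was 0.0805 for the first pair and 0.18 to 0.254 for the others. The labelled grain tissue was checked by marker genes. Gliadin-domain storage protein genes summed to between 11400 and 23000 FPKM without shading and between 3220 and 5490 FPKM with it. The starchy endosperm list as a whole (51 genes, 34 of them called lower and 2 higher) lay between 12600 and 24700 FPKM and between 4110 and 6470 FPKM. The green tissue list (83 genes, all 39 tested ones called higher) went from between 16.0 and 30.5 FPKM to between 926 and 1240 FPKM. Over all genes tested, 42.4% were called higher and 21.5% lower. With so low an unshaded sum, some of those 39 genes averaged under 1 FPKM without shading. They reached the 1 FPKM average needed for testing through the shaded libraries only, so they had to differ. The list for embryo and aleurone (217 genes) lay between 1380 and 1670 FPKM and between 1550 and 1730 FPKM, and that for dividing cells (96 genes) between 2090 and 2750 FPKM and between 3280 and 4880 FPKM. Within the embryo and aleurone list the late embryogenesis abundant genes rose in sum, while the oleosin and caleosin genes fell in sum. No gene of these lists was at 0 in every library. The same held for all 136488 genes of the table, so it does not bear on the tissue. In these bulk samples fewer cells of a type and less RNA per cell cannot be told apart, and the part of tissue makeup in the results below was not tested.

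Of the 221 genes, 103 reached an average of 1 FPKM across the libraries and were tested with limma on log2(FPKM + 1), and 118 lay below. The tested members just above that limit had a mean of 1.04 FPKM and the untested ones just below it 0.968 FPKM. Under shading 48 members were called higher (46.6%), 22 were called lower and 33 were not called at a Benjamini-Hochberg adjusted p of 0.05. Together 70 of the 103 were called, beside 63.9% of all genes tested. Over all 58283 genes tested, 42.4% were called higher and 21.5% lower (21.4% of the members), so the members as a whole did not stand apart from the background. Some members passed the limit through 1 group only, 19 of them through the ear-shaded and 4 through the unshaded libraries. Among the 80 with at least 1 FPKM on average in both groups, 32 were called higher (40%) and 18 lower (22.5%), against 37.6% and 19.4% of all such genes. By a 2-fold limit on that log2 scale, 20 members were higher and 11 lower, beside 16.3% and 10.4% of all tested genes. The groups did not overlap in 49 tested members that were higher and 27 that were lower, beside 46.2% and 24.0% of all tested genes (70.2% either way). Median-of-ratios scaling gave 33 members higher and 30 lower, beside 29.7% and 29.8% of all genes. What set the families apart from each other was the direction and the copy, and the account follows the pathway from synthesis to transcription factors. Gene IDs share the prefix AVESA.00010b.r2., which is left out from here on, and their first characters name a chromosome (7C) or no chromosome (Un).

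**Figure D1:**
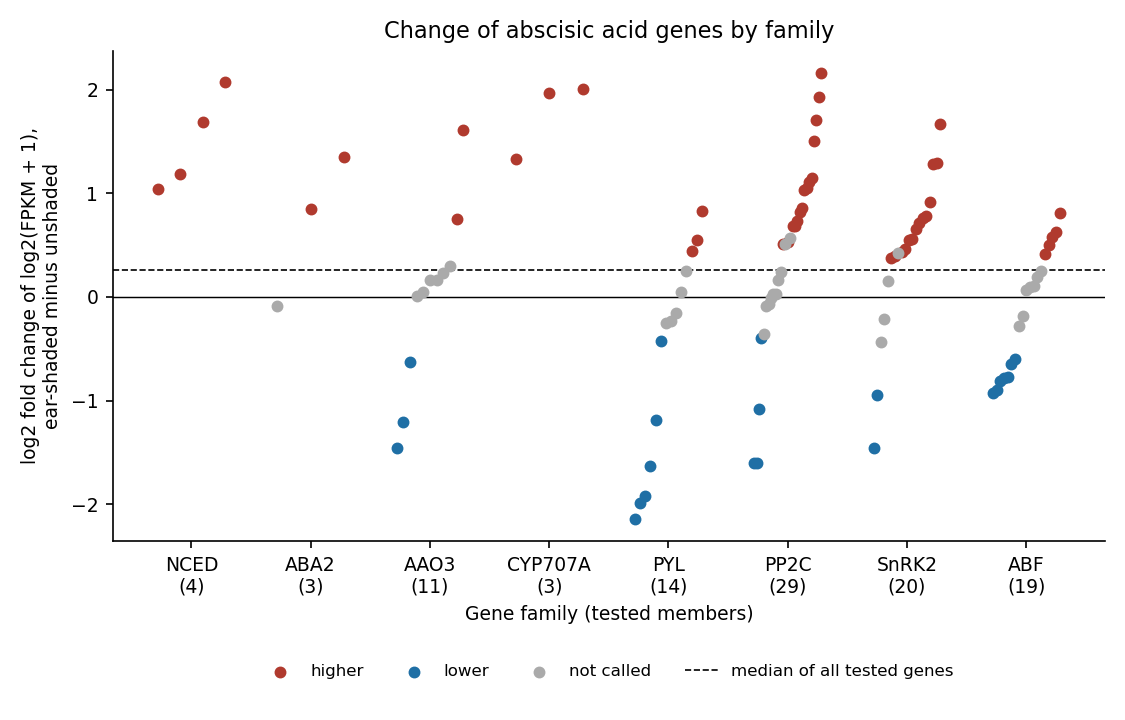
Log2 fold change on the log2(FPKM + 1) scale (y axis, ear-shaded minus unshaded) of every tested member (points) by family (x axis, number tested in brackets), coloured by the limma call, with the median of all tested genes as a dashed line at 0.26. All tested NCED and CYP707A genes lie above 1, PYL genes reach down to -2.14, and the most raised gene is a PP2C at 2.16.

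NCED, the step taken to limit the rate of ABA synthesis, was higher in grains of shaded ears. The 12 NCED genes summed to 1.23, 2.60 and 2.98 FPKM in unshaded replicates 1 to 3 and to 18.5, 18.4 and 12.7 FPKM in ear-shaded ones. The lowest shaded library thus lay far above the highest unshaded one, and the group means, 2.27 ± 0.92 and 16.6 ± 3.34 FPKM (SD, n = 3), differed 7.29-fold. NCED remained a family of low level throughout, with 16.6 FPKM spread over 12 copies.

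The most abundant copy, 7CG0693440, was at 0.473, 0.833 and 1.36 FPKM in unshaded and at 7.77, 7.51 and 5.33 FPKM in ear-shaded libraries. It rose by 2.07 on the log2 scale (SE 0.20, limma adjusted p = 0.000117), and it held between 32.1% and 45.5% of the family's FPKM in every library. Copy 6CG1085460 was at 0.0902, 0.5 and 0.198 FPKM and at 3.09, 3.73 and 2.44 FPKM. The ratio of its group means was 11.7, or 21.4 without unshaded replicate 2, and its log2 fold change was 1.69 (SE 0.17, limma adjusted p = 0.00013). The copies 4DG0742100 (0.328 ± 0.130 to 2.04 ± 0.335 FPKM) and 4AG0598250 (0.369 ± 0.0677 to 1.84 ± 0.363 FPKM) rose by 1.19 and 1.04 on the log2 scale. In all 4 copies the groups did not overlap, and ear-shaded replicate 3 was the lowest of the shaded libraries.

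All 4 tested NCED genes had a mean under 1 FPKM in unshaded grains, so they entered the test through the shaded libraries and had to differ. Without the limit on low values limma called 7 of the 12 genes higher and 0 lower, where it called 28.4% of all 136488 genes higher and 12.8% lower. Of the 12 genes, 8 had all shaded libraries above all unshaded ones and 0 the reverse, where 35.4% and 16.7% of all genes did. Among the untested copies, chosen here after their values were seen, 6DG1170250 was at 0.0430 ± 0.0161 FPKM without and 0.861 ± 0.316 FPKM with shading. Copy 6AG1029540 was listed at 0 in every unshaded library and at 0.703, 0.603 and 0.430 FPKM in the shaded ones. The copies 2CG0290370, 2AG0211750 and 2DG0338470 stayed at or under 0.0961 FPKM in all 6 libraries.

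The next enzymes moved less. The 5 ABA2 genes summed to 7.73 ± 0.186 FPKM without and 15.5 ± 1.22 FPKM with shading, a ratio of 2.01. The main copy 4AG0614470 was at 4.73, 4.49 and 4.91 FPKM and at 9.15, 8.62 and 10.1 FPKM, and it rose by 0.85 on the log2 scale (SE 0.11, limma adjusted p = 0.000405). Copy 7CG0709710 rose from 0.883 ± 0.153 to 3.77 ± 0.0393 FPKM, by 1.35 on the log2 scale (limma adjusted p = 6.59e-05). It averaged under 1 FPKM in unshaded grains and passed the limit on low values through the shaded libraries only, so it had to differ. The third tested copy, 4DG0757960, did not pass (2.12 ± 0.0856 and 1.96 ± 0.619 FPKM). Copy 4DG0757960 made up 26.9%, 28.1% and 27.2% of the family's FPKM in unshaded and 10.3%, 11.4% and 15.8% in ear-shaded libraries, and 7CG0709710 made up 10.2%, 13.6% and 10.4% and then 24.9%, 25.7% and 22.6%.

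The aldehyde oxidase genes under the AAO3 entry did not share a direction. Of 32 genes 14 also carry the entry of an indole-3-acetaldehyde oxidase, an enzyme placed in auxin synthesis, so the substrate of a given copy is not fixed by the annotation. The family summed to 41.1 ± 5.87 FPKM without and 38.5 ± 2.93 FPKM with shading, and the groups overlapped. Of 11 tested genes 2 were called higher and 3 lower, beside 42.4% and 21.5% of all tested genes. The 3 lower ones were the most abundant copies by the mean over all libraries, though not in the shaded ones alone. Copy 7CG0706690 was at 8.65, 8.92 and 8.55 FPKM and at 4.77, 4.71 and 6.51 FPKM (log2 fold change -0.63, limma adjusted p = 0.00457). Copy 3DG0553940 was at 12, 6.59 and 6.76 FPKM and at 2.42, 2.14 and 2.46 FPKM (-1.46, limma adjusted p = 0.000655), with no overlap in spite of the high unshaded replicate 1. Copy 4AG0633470 fell from 5.08 ± 1.39 to 1.6 ± 0.229 FPKM. In the other direction 4CG1273650, named after its values were seen, went from 0.455 ± 0.108 to 3.46 ± 0.427 FPKM and passed the limit on low values through the shaded libraries only. Copy 2AG0210930 was at 1.23 ± 0.336 and 2.80 ± 0.976 FPKM (log2 fold change 0.75, limma adjusted p = 0.0171), a call lost without ear-shaded replicate 1 (adjusted p = 0.0618) or 2 (0.064), without unshaded replicate 2 (0.0517), with those shaded replicates averaged (0.0618), and with median-of-ratios (0.0546) or quantile (0.0623) scaling. The copies 2DG0339910 (2.61 ± 1.01 and 2.94 ± 0.262 FPKM) and 4AG0611570 (2.40 ± 0.370 and 2.52 ± 0.367 FPKM) did not pass.

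**Figure D2:**
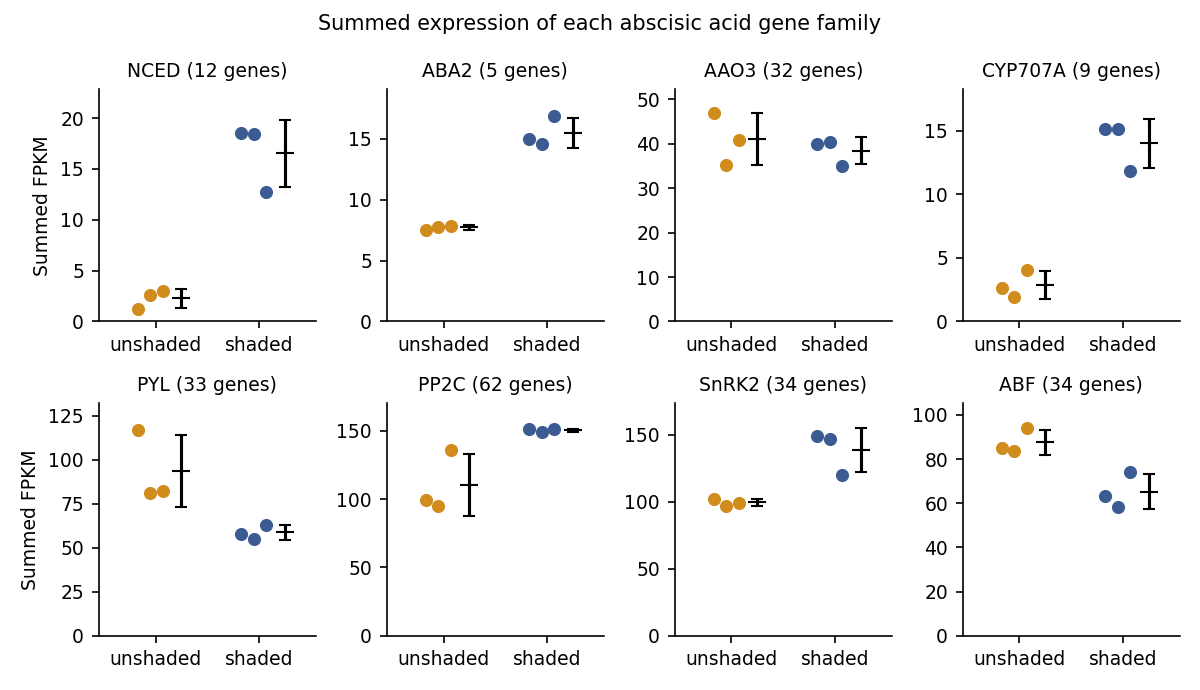
Summed FPKM of all genes of each family (y axes, each from 0) in the 3 unshaded and 3 ear-shaded libraries (points), with the mean and SD (black bars). NCED (2.27 to 16.6 FPKM) and CYP707A (2.87 to 14.0 FPKM) separate most, AAO3 overlaps, and PYL and ABF are lower in the shaded libraries.

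The ABA 8'-hydroxylases of the CYP707A family, which break ABA down, were higher together with NCED. The 9 genes summed to 2.62, 1.93 and 4.07 FPKM in unshaded and to 15.1, 15.1 and 11.8 FPKM in ear-shaded libraries, 4.87-fold by the group means. The ratio of the NCED sum to the CYP707A sum was 0.471, 1.35 and 0.732 in unshaded and 1.23, 1.22 and 1.07 in ear-shaded libraries. These ratios overlapped between the groups, so no shift of the transcript balance between the first ABA-specific step and breakdown was seen beyond the spread.

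The rise of the family lay in 3 copies labelled 6A, 6C and 6D. Copy 6AG1029590 was at 0.224, 0.740 and 0.818 FPKM in unshaded and at 5.89, 6.30 and 4.05 FPKM in ear-shaded libraries (log2 fold change 2.01, SE 0.20, limma adjusted p = 0.000128). Copy 6CG1085420 was at 0.256, 0.191 and 0.704 FPKM and at 4.99, 4.55 and 3.66 FPKM (1.97, SE 0.17, limma adjusted p = 7.66e-05). Copy 6DG1170220 was at 0.800, 0.268 and 1.51 FPKM and at 3.37, 3.46 and 3.66 FPKM (1.33, SE 0.23, limma adjusted p = 0.0015). Unshaded replicate 3 was the highest unshaded library in each. The folds of the group means, 11.5 for 6CG1085420 and 4.07 for 6DG1170220, were 19.6 and 6.55 without it. These 3 genes also passed the limit on low values through the shaded libraries only. Without the limit 4 of the 9 genes were called higher and 2 lower, beside 28.4% and 12.8% of all genes. The lower ones, named after their values were seen, were 7DG1383080 (0.640 ± 0.276 to 0.198 ± 0.0114 FPKM) and 7AG1225150 (0.258 ± 0.0684 to 0.0598 ± 0.0182 FPKM), so the copies of this family did not all move one way.

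**Figure D3:**
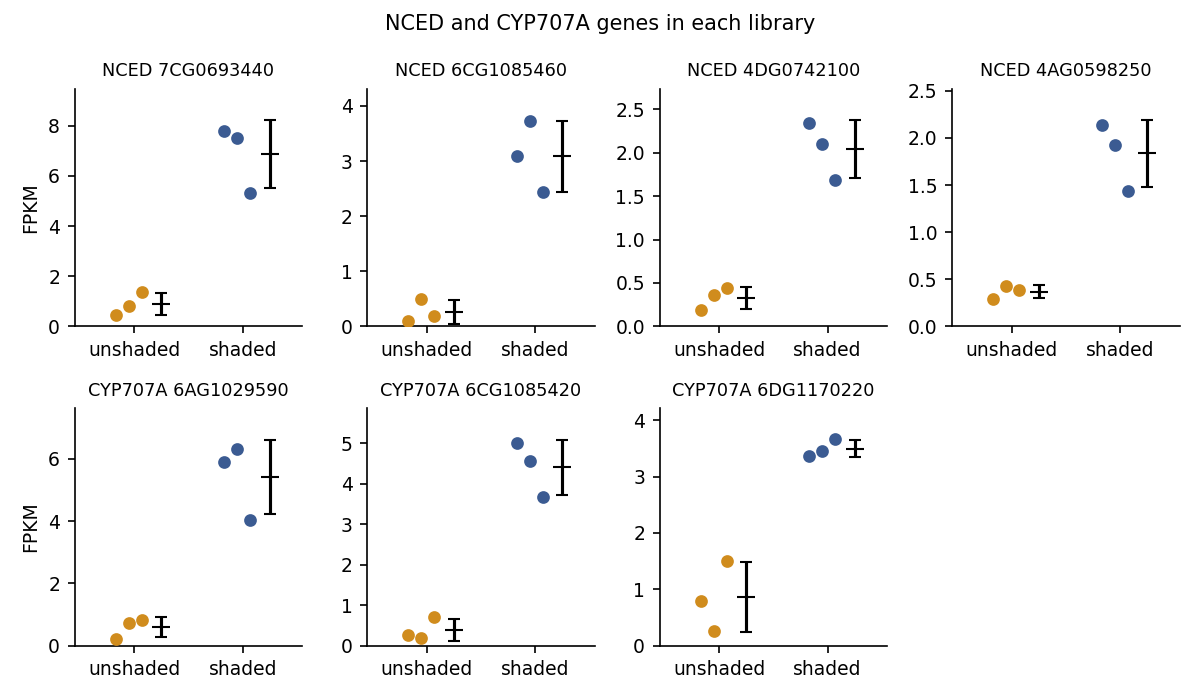
FPKM (y axes, each from 0) of the 4 tested NCED and 3 tested CYP707A genes in each of the 3 unshaded and 3 ear-shaded libraries (points), with mean and SD (black bars). In all 7 genes every shaded library lies above every unshaded one, and most unshaded values are under 1 FPKM.

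By ID number, which the rule did not use, some NCED genes lay near CYP707A genes. On each of the chromosome labels 6A, 6C and 6D an NCED gene and a raised CYP707A gene had neighbouring ID numbers, 50, 40 and 30 apart, with 3, 2 and 2 listed genes between them. The pairs were 6AG1029540 with 6AG1029590, 6CG1085460 with 6CG1085420, and 6DG1170250 with 6DG1170220. In the 3 NCED genes, as in the CYP707A genes picked as raised, every shaded library lay above every unshaded one, which held for 35.4% of all genes. Each interval also held 1 gene with the text of an EamA-like transporter, a family of membrane transporters. Of these, 6CG1085450 was at 1.12, 1.18 and 0.816 FPKM and at 1.48, 1.39 and 1.12 FPKM and did not pass. The copies 6DG1170240 (2.49, 2.05 and 2.20 FPKM, then 1.55, 1.80 and 1.54 FPKM) and 6AG1029550 (1.96, 2.17 and 2.13 FPKM, then 1.40, 1.48 and 1.33 FPKM) fell by 0.30 and 0.36 on the log2 scale (limma adjusted p = 0.0463 and 0.0178). Of the other genes between the pairs, which have no annotation text and were not tested, 6CG1085440 was at 0.321 ± 0.048 and 1.49 ± 0.436 FPKM. Both it and 6AG1029570 (0.0576 ± 0.0559 and 0.17 ± 0.0214 FPKM) had every shaded library above every unshaded one, while 6DG1170230 and 6AG1029560 overlapped. The order of ID numbers was read as the order of genes and was not compared with a genome, and these neighbours were noticed after the values had been seen.

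The PYL receptors were lower on balance, and the loss lay in few copies. The 33 genes summed to 117, 80.9 and 82.3 FPKM in unshaded and to 57.6, 55.2 and 63.2 FPKM in ear-shaded libraries, with no overlap and a ratio of 1.59 in the direction of unshaded. Of 14 tested genes 3 were called higher and 6 lower, a share of 42.9% lower beside 21.5% of all tested genes (42.4% higher). The 3 higher ones became 1 with median-of-ratios scaling, where 29.7% of all tested genes were called higher. The same held with quantile scaling, where 52.2% of all calls were higher, and without ear-shaded replicate 1. Over the 14 tested receptor genes the median log2 fold change lay 0.50 below that of all genes. Of these genes 2 passed the limit on low values through the unshaded libraries only. Among the other 12 there were 3 higher and 4 lower, beside 37.6% and 19.4% of all genes that passed in both groups.

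Copy 7AG1247420 was the most abundant receptor of unshaded grains at 23.5, 14.1 and 13.4 FPKM, and it was at 1.84, 2.35 and 5.59 FPKM in ear-shaded ones. It fell by 2.14 on the log2 scale (SE 0.33, limma adjusted p = 0.000951), 5.22-fold by the group means and 8.12-fold without ear-shaded replicate 3. Copy 7AG1247410, next to it by ID number, was at 12.9, 6.86 and 7.14 FPKM and at 1.23, 0.886 and 2.40 FPKM (-1.99, SE 0.28, limma adjusted p = 0.000599). Copy 4CG1286460 was at 21.6, 11.8 and 11.7 FPKM and at 3.03, 3.53 and 5.74 FPKM (-1.63, SE 0.27, limma adjusted p = 0.00133). In each of these genes unshaded replicate 1 was the highest and ear-shaded replicate 3 the highest of the shaded libraries, and the groups stayed apart. The neighbours 7DG1360300 (5.09 ± 2.25 to 0.549 ± 0.195 FPKM) and 7DG1360290 (2.04 ± 0.609 to 0.316 ± 0.133 FPKM, named after its values were seen) fell as well. Both averaged under 1 FPKM in shaded grains and passed the limit on low values through the unshaded libraries only, so they had to differ.

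These 5 genes, the PYL members lower by at least 2-fold, held 58.3%, 48.7% and 44.7% of all receptor FPKM in unshaded libraries and 11.8%, 13.5% and 23.7% in ear-shaded ones. Their gene lengths were between 1073 and 1192 bases, while the other 9 tested receptors had lengths between 1453 and 2641 bases. The other 28 PYL genes summed to 45.3 ± 3.66 FPKM without and 48.9 ± 1.62 FPKM with shading, with overlapping groups. The lower receptor sum was therefore carried by the 5 short copies, which were picked by their values, so no test is given for the set.

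Among the longer copies 1CG0083180 was at 6.42, 5.14 and 5.27 FPKM in unshaded and at 12.5, 11.1 and 8.93 FPKM in ear-shaded libraries. It rose by 0.83 on the log2 scale (SE 0.15, limma adjusted p = 0.00184) and its share of receptor FPKM went from 5.5%, 6.4% and 6.4% to 21.7%, 20.1% and 14.1%. Copy 1AG0057050 was at 4.41 ± 0.837 and 6.87 ± 0.963 FPKM (log2 fold change 0.55, limma adjusted p = 0.0154), a call lost with median-of-ratios (adjusted p = 0.185) or quantile (0.101) scaling and without ear-shaded replicate 1 (0.0657). Copy 1DG0175670 was at 11.7, 10.1 and 10.5 FPKM and at 9.04, 8.93 and 9.00 FPKM. It did not pass (limma adjusted p = 0.0957) but was called lower under median-of-ratios (log2 fold change -0.54) or quantile (-0.40) scaling and with library weights (-0.27).

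**Figure D4:**
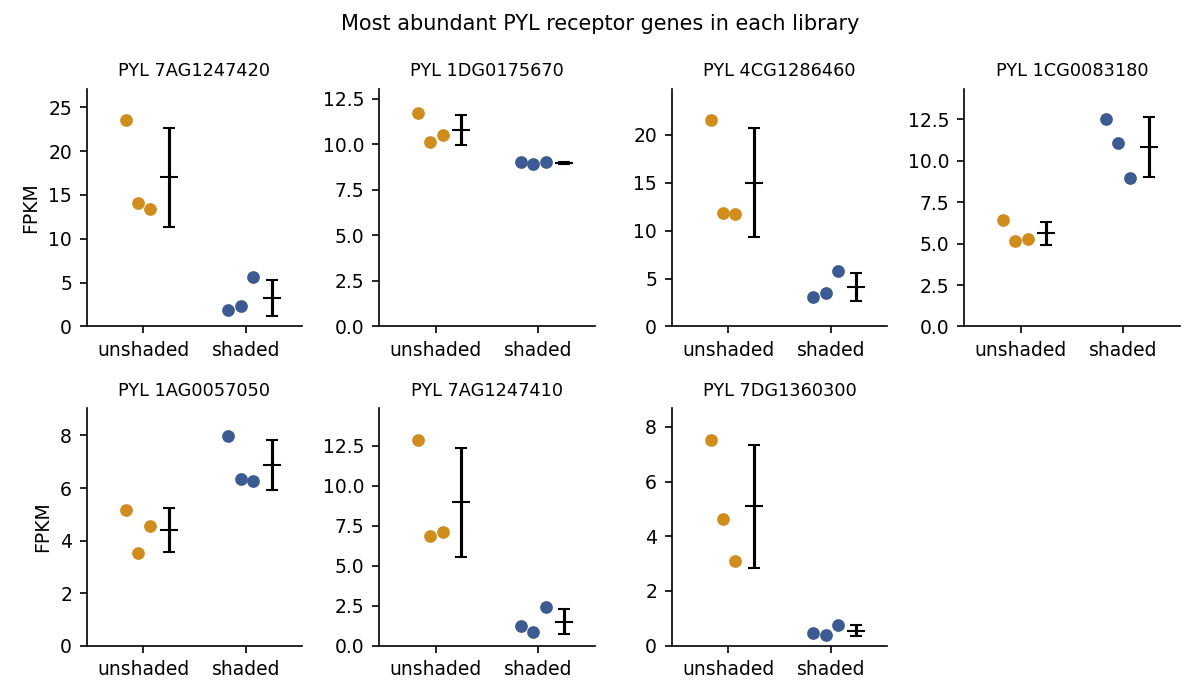
FPKM (y axes, each from 0) of the 7 named PYL receptor genes in the 3 unshaded and 3 ear-shaded libraries (points), with mean and SD (black bars). The copies 7AG1247420, 4CG1286460, 7AG1247410 and 7DG1360300 drop without overlap, while 1CG0083180 and 1AG0057050 lie higher in the shaded libraries. Copy 7DG1360300 passed the limit on low values through the unshaded libraries only.

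The PP2C phosphatases, which hold the pathway off in the absence of ABA, were mixed. The 62 genes summed to 99.6, 94.8 and 136 FPKM in unshaded and to 151, 149 and 151 FPKM in ear-shaded libraries. The log2 ratio of these sums lay between 0.35 and 0.63 with any 1 library left out, but was 0.12 with median-of-ratios scaling. Of 29 tested genes 15 were called higher (51.7%) and 4 lower, beside 42.4% and 21.5% of all tested genes. With quantile scaling 7 were called lower, a setting in which 52.2% of all calls were higher in place of 66.4%. Of the 29, 4 passed the limit on low values through the shaded and 2 through the unshaded libraries only. Among the other 23 there were 12 higher and 2 lower, beside 37.6% and 19.4% of such genes. The median log2 fold change lay 0.28 above that of all genes. Without the limit on low values 17 of 62 were called higher and 14 lower, beside 28.4% and 12.8% of all genes.

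On the log2(FPKM + 1) scale the largest rise was in 4DG0764810, at 3.10, 4.08 and 6.78 FPKM in unshaded and at 22.8, 23.6 and 23.8 FPKM in ear-shaded libraries (log2 fold change 2.16, SE 0.22, limma adjusted p = 0.000134). It held 3.1%, 4.3% and 5.0% of the family's FPKM in unshaded and 15.1%, 15.9% and 15.8% in ear-shaded libraries. Copy 3CG0511400 was at 0.943, 1.34 and 2.03 FPKM and at 8.92, 7.97 and 7.58 FPKM (1.93, SE 0.17, limma adjusted p = 8.27e-05), and by the ratio of group means its rise, 5.67-fold, was above the 5.03-fold of 4DG0764810. Copy 4AG0637190 was at 1.21, 1.39 and 3.45 FPKM and at 9.02, 8.29 and 7.82 FPKM (1.71, SE 0.25, limma adjusted p = 0.000726). Its fold of group means was 4.15, or 6.44 without unshaded replicate 3, and that library was the highest unshaded one in all 3 genes. None of these 3 copies carries the gene ontology term for a response to ABA, which 37 of the 62 genes carry. Of the 17 tested genes with the term 9 were called higher and 3 lower, and of the 12 without it 6 and 1.

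The most abundant PP2C locus of unshaded grains moved the other way. MSTRG.79420, a locus outside the AVESA gene IDs with a length of 546 bases, was at 16.9, 21.5 and 22.9 FPKM and at 8.84, 8.93 and 9.33 FPKM (log2 fold change -1.08, SE 0.14, limma adjusted p = 0.000365). It held 17.0%, 22.7% and 16.8% of the family's FPKM and then 5.9%, 6.0% and 6.2%. A run of 4 neighbouring ID numbers on 2D, from 2DG0387950 to 2DG0387990, was noticed after the values had been seen and summed to 7.17, 5.29 and 6.09 FPKM in unshaded and 0.723, 0.321 and 0.369 FPKM in ear-shaded libraries. Its tested gene 2DG0387950 went from 2.5 ± 0.336 to 0.153 ± 0.0222 FPKM and passed the limit on low values through the unshaded libraries only. A run of 3 on 6C, 6CG1116940 to 6CG1116960, summed to 2.30 ± 0.641 and 0.508 ± 0.189 FPKM and held no tested gene. The copies 3CG0478670 (9.19 ± 1.32 and 9.36 ± 0.312 FPKM) and UnG1418900 (5.68 ± 1.17 and 5.65 ± 1.30 FPKM) did not pass. For 5CG0894210 (4.42 ± 1.77 and 7.42 ± 0.726 FPKM, log2 fold change 0.68, limma adjusted p = 0.0243) the call ended without any 1 of 4 libraries, ear-shaded replicates 1 and 2 and unshaded replicates 1 and 2 (adjusted p from 0.0699 to 0.08). It also ended with median-of-ratios (0.0991) or quantile (0.0642) scaling and with ear-shaded replicates 1 and 2 averaged (0.0726). For 3AG0441310 (5.72 ± 0.867 and 4.08 ± 0.473 FPKM, log2 fold change -0.40, limma adjusted p = 0.0343) the call ended without ear-shaded replicate 1 or 2 or unshaded replicate 1 or 3 (adjusted p from 0.0829 to 0.125), with scaling to the same sum (0.114) and with that average (0.11).

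SnRK2 kinases were mostly higher. The 34 genes summed to 102, 97.0 and 99.3 FPKM in unshaded and to 149, 147 and 120 FPKM in ear-shaded libraries. The log2 ratio of these sums lay between 0.43 and 0.58 with any 1 library left out, but was 0.14 with median-of-ratios scaling. Of 20 tested genes 14 were called higher (70.0%) and 2 lower, beside 42.4% and 21.5% of all tested genes. Of the 20, 2 passed the limit on low values through the shaded libraries only. Among the other 18 there were 12 higher and 2 lower, beside 37.6% and 19.4% of all genes that passed in both groups. The count depended on scaling, with 8 higher and 4 lower under median-of-ratios scaling (29.7% and 29.8% of all tested genes). Under quantile scaling it was 9 and 4, where 52.2% of all calls were higher. The family's median log2 fold change lay 0.25 above that of all genes. Of its members 10 carry the ontology term for a response to ABA, all of them tested, and of these 5 were called higher and 2 lower. Of the 10 tested genes without the term 9 were called higher and 0 lower.

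By the mean over all 6 libraries the most abundant kinases were 3 copies labelled 2D, 2A and 2C without that term. Copy 2DG0328760 was at 11.1, 9.80 and 10.9 FPKM and at 18.2, 18.0 and 15.8 FPKM (log2 fold change 0.66, SE 0.12, limma adjusted p = 0.0018). Copy 2CG0301430 rose from 6.41 ± 0.662 to 11.8 ± 1.56 FPKM. For 2AG0221460 (10.1 ± 1.14 and 15.4 ± 1.94 FPKM, log2 fold change 0.56, limma adjusted p = 0.00852) the call ended with median-of-ratios scaling (adjusted p = 0.129).

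Copies with the term went both ways. Copy 6AG1057640 was at 1.21, 1.76 and 2.47 FPKM and at 8.47, 8.32 and 6.74 FPKM (log2 fold change 1.67, SE 0.18, limma adjusted p = 0.00017). Copies 2CG0267010 (4.21 ± 1.30 to 11.7 ± 2.23 FPKM) and 4CG1266340 (1.16 ± 0.364 to 4.27 ± 0.865 FPKM) rose by 1.29 and 1.28 on the log2 scale. In the opposite direction 4DG0740470 was at 9.89, 7.74 and 7.09 FPKM and at 1.75, 1.92 and 3.61 FPKM (-1.46, SE 0.22, limma adjusted p = 0.000729). Its neighbour by ID number, 4DG0740460, did not pass (1.88 ± 1.03 and 2.79 ± 1.11 FPKM), so neighbouring kinase genes did not move together here. Copy 4AG0596440 fell from 5.35 ± 1.03 to 2.27 ± 0.203 FPKM. Copy 4AG0608970 (7.69 ± 0.538 and 8.70 ± 1.42 FPKM) did not pass. Copy 7CG0691730 (9.52 ± 1.80 and 6.85 ± 1.55 FPKM) did not pass either, but was called lower under median-of-ratios (log2 fold change -0.73) or quantile (-0.60) scaling, with library weights (-0.36) and without unshaded replicate 3 (-0.58).

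**Figure D5:**
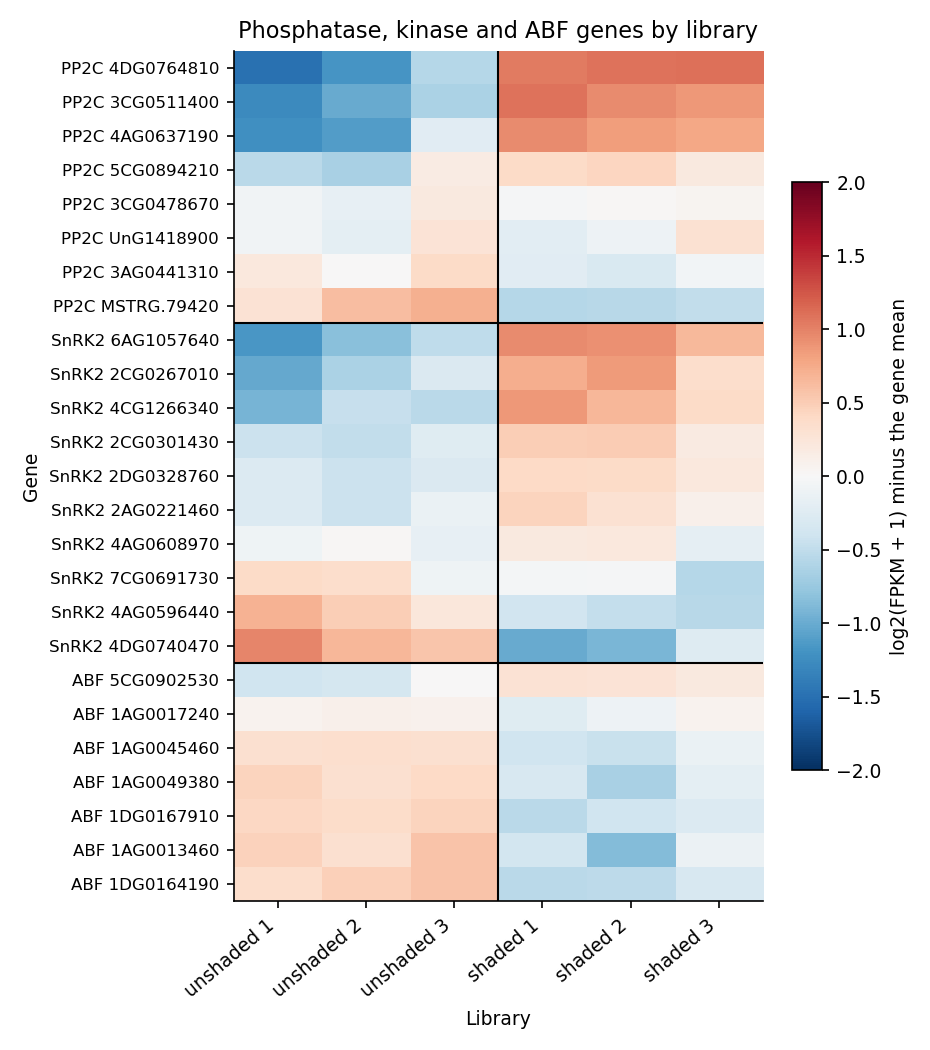
Log2(FPKM + 1) minus the gene's mean over the 6 libraries (colour) for the named PP2C, SnRK2 and ABF genes (rows, ordered within a family by log2 fold change) in each library (columns). The PP2C copies 4DG0764810, 3CG0511400 and 4AG0637190 are red in the shaded libraries, and 5 ABF rows are blue in every shaded library.

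The ABF-type bZIP factors, the last step, were lower in their abundant copies. The 34 genes summed to 85.0, 83.7 and 93.9 FPKM in unshaded and to 63.2, 58.4 and 74.0 FPKM in ear-shaded libraries, without overlap. Of 19 tested genes 5 were called higher (26.3%) and 7 lower (36.8%), beside 42.4% and 21.5% of all tested genes. Of the 19, 3 passed the limit on low values through the shaded libraries only. Among the other 16 there were 3 higher and 7 lower, beside 37.6% and 19.4% of all genes that passed in both groups. The 5 higher ones became 3 with median-of-ratios scaling, where 29.7% of all tested genes were called higher. The same held with quantile scaling, where 52.2% of all calls were higher, and without ear-shaded replicate 1. None of the 19 tested genes changed by 2-fold or more on the log2(FPKM + 1) scale, which understates changes of low genes. By the ratio of group means 1DG0164190 fell 2.08-fold, 1DG0167910 2.03-fold and 5DG0961790 2.39-fold. In the other direction 4AG0639240 rose 2.75-fold and 4AG0632770 2.27-fold, both having passed the limit on low values through the shaded libraries only. The latter genes and 5DG0961790 were named after their values were seen. The most abundant, 1AG0013460, was at 18.1, 16.3 and 19.5 FPKM and at 9.72, 6.58 and 11.8 FPKM (log2 fold change -0.90, SE 0.20, limma adjusted p = 0.00473). Copy 1AG0045460 was at 14.0, 14.2 and 14.0 FPKM and at 8.14, 7.82 and 10 FPKM (-0.65, SE 0.12, limma adjusted p = 0.00256). Copy 1DG0164190 was at 10, 11.0 and 11.8 FPKM and at 4.91, 4.98 and 5.88 FPKM (-0.93, SE 0.12, limma adjusted p = 0.000383). Copies 1AG0049380 (5.74 ± 0.267 to 2.95 ± 0.627 FPKM) and 1DG0167910 (5.57 ± 0.165 to 2.75 ± 0.332 FPKM) fell alike.

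The 3 most abundant copies do not carry the ontology term for a response to ABA, which 31 of the 34 genes carry. Of the 16 tested genes with the term 5 were called higher and 4 lower. Copy 1AG0017240 (5.51 ± 0.0612 and 4.77 ± 0.653 FPKM) did not pass, but passed as lower with median-of-ratios (log2 fold change -0.47) or quantile (-0.39) scaling. Copy 5CG0902530 was at 1.99 ± 0.490 and 3.19 ± 0.146 FPKM (log2 fold change 0.50, limma adjusted p = 0.0145), a call lost with median-of-ratios (adjusted p = 0.0911) or quantile (0.0902) scaling, without ear-shaded replicate 1 (0.0526) or 2 (0.0519) or unshaded replicate 1 (0.053), and with those shaded replicates averaged (0.0504).

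Among the 70 called members ear-shaded replicate 3 was the shaded library nearest to the unshaded mean in 54 (77.1%), and unshaded replicate 3 the unshaded library nearest to the shaded mean in 41 (58.6%). The authors' deposited table gives marks, and 33 of the 221 genes are marked up (14.9%) and 37 down (16.7%), beside 13.4% and 12.9% of all genes. These marks include genes not tested here. Up and down they were 7 and 0 for NCED, 3 and 0 for ABA2, 4 and 5 for AAO3, and 5 and 2 for CYP707A. For signalling they were 0 and 7 for PYL, 7 and 12 for PP2C, 6 and 2 for SnRK2, and 1 and 9 for ABF. The SnRK2 copies 2DG0328760, 2AG0221460 and 2CG0301430, called higher here, carry no mark.

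Neighbouring genes of the pathway were counted by annotation text. Zeaxanthin epoxidase, violaxanthin de-epoxidase and the molybdenum cofactor sulfurase that activates aldehyde oxidases gave 16 genes, 10 of them tested, with 4 called higher and 0 lower, beside 42.4% and 21.5% of all tested genes. Their 2 most abundant members, 7DG1348230 (3.06 ± 0.823 and 4.03 ± 0.155 FPKM) and 6CG1143920 (3.49 ± 0.555 and 2.83 ± 0.414 FPKM), did not pass. Texts for ABI3-type regulators and S-type anion channels matched no gene.

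Families known to respond to ABA were counted in the same way, and their directions differed. The ABA/WDS induced proteins, small proteins of stress and ripening, gave 4 genes. Of these, 3 were tested and 3 called higher, beside 42.4% of all tested genes. Copy 4DG0734460 was at 2.15, 3.81 and 3.90 FPKM in unshaded and at 60.9, 59.7 and 28.8 FPKM in ear-shaded libraries (log2 fold change 3.52, SE 0.31, limma adjusted p = 7.82e-05). Copies 4AG0590190 (1.62 ± 0.427 to 26.5 ± 8.64 FPKM) and 7CG0684900 (0.914 ± 0.538 to 22.7 ± 12.2 FPKM) rose by 3.35 and 3.50 on the log2 scale, the latter having passed the limit on low values through the shaded libraries only. Late embryogenesis abundant proteins, which protect drying cells, had 51 of 80 tested genes higher and 12 lower, with 42.4% and 21.5% as background. The same genes form part of the embryo and aleurone marker list, whose oleosin genes went from between 18.2 and 32.0 FPKM to between 7.05 and 7.61 FPKM. Its caleosin genes went from between 672 and 1160 FPKM to between 320 and 438 FPKM. Of 19 tested caleosin genes 10 were called higher and 7 lower, beside 42.4% and 21.5% of all tested genes. The part of tissue makeup was not tested. The late embryogenesis abundant genes summed to 585 ± 154 FPKM without and 1300 ± 169 FPKM with shading. The most abundant, 4AG0589560, rose from 70.3 ± 27.0 to 204 ± 9.73 FPKM, and 1AG0074540 and 1DG0193390 rose by 2.66 and 2.64 on the log2 scale. Dehydrins had 3 of 6 tested genes higher and 3 lower (42.4% and 21.5% of all tested genes), and the most abundant, 6DG1168050, rose from 33.3 ± 17.9 to 77.8 ± 15.0 FPKM. The HVA22 family, membrane proteins named after a barley gene induced by ABA, had 7 of 27 higher and 5 lower, beside 42.4% and 21.5% of all tested genes. That count was 4 and 8 with median-of-ratios scaling, beside 29.7% and 29.8% of all tested genes. Its most abundant member 2CG0272180 was at 9.58 ± 0.809 and 7.52 ± 0.427 FPKM, a call (limma adjusted p = 0.0425) that ended when any 1 of 5 libraries was left out.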

How the data were processed

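Per the labels' protocols, libraries were made from fragmented mRNA of peeled seeds. The protocols name an Illumina kit and a PacBio sequencer, so the platform is unsettled. The submitters' processing notes name HISAT2 and StringTie. For the build, annotation and strand setting, nothing is given in the sources used here. The authors deposited FPKM per gene and library and gene length in bases. Per the file headers the table also holds the authors' log2 fold change and their p-value, raw and adjusted. Whole reads could not be recovered, since at most 16.3% of low values came within 0.05 of a whole number where chance gives 10%, so no count model was used.

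Genes averaging 1 FPKM or more were tested on log2(FPKM + 1) with limma 3.58.1 in R 4.3.3, using a mean-variance trend and Benjamini-Hochberg adjustment over all 58283 genes. The test is two-sided, and log2 fold changes on this scale understate the change of low genes. The fit was tested on simulated data. Alternatives were another pseudocount and filter, 3 other scalings, no trend, weights per library, a block for the replicate number, each library left out and ear-shaded replicates 1 and 2 averaged. Members and lists were chosen with earlier results of these data known. Named per family were the 5 most abundant tested members, up to 3 called increases and 3 decreases averaging 2 FPKM or more, and a family of at most 8 tested members whole. Per neighbouring list the 2 most abundant and 2 most changed called genes were taken. Close copies in a polyploid genome can share reads, so single copies are less certain than sums. Without a stated strand setting reads of overlapping genes cannot be told apart.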

Additional observations from a re-analysis of the deposited data

How the results depend on the processing

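Between 36 and 48 members were called higher and between 19 and 23 lower when 1 library was left out, and over all genes between 20290 and 25940 and between 10375 and 12603. Without the limit on low values 38730 genes were called higher, and 39 members were called lower in place of 22 because 221 were tested. The split of calls depended on scaling. With the FPKM as deposited the median log2 fold change of all genes was 0.26 and 68.6% of the members' calls were higher. Median-of-ratios scaling moved that median to 0.01 and gave 33 members higher and 30 lower, 52.4% higher, and quantile normalization gave 35 and 32. The signs that turned were all of values not called. With median-of-ratios scaling 2DG0339910 was at -0.08, 4AG0611570 at -0.19, 3CG0478670 at -0.28 and 4AG0608970 at -0.16, and with quantile normalization at -0.09, -0.20, -0.15 and -0.03. Without unshaded replicate 2 the first 3 were at -0.05, -0.01 and -0.04, and without ear-shaded replicate 3 4AG0611570 was at -0.03. UnG1418900 turned to 0.11 with scaling to the same sum, to 0.07 with ear-shaded replicates 1 and 2 averaged, to 0.10 and 0.04 without either of them and to 0.13 without unshaded replicate 3. 4DG0757960 was at 0.01 without ear-shaded replicate 1. With each library left out in turn 4DG0757960 ranged from -0.26 to 0.01, 2DG0339910 from -0.05 to 0.36, 4AG0611570 from -0.03 to 0.14, 3CG0478670 from -0.04 to 0.13, UnG1418900 from -0.16 to 0.13 and the AAO3 ratio from -0.19 to 0.02. The log2 ratio of the AAO3 sums, -0.09, turned to 0.04 with scaling to the same sum and 0.02 without unshaded replicate 1. With median-of-ratios scaling the log2 ratio of sums was 0.66 for ABA2, -0.44 for AAO3, -1.02 for PYL, 0.12 for PP2C, 0.14 for SnRK2 and -0.76 for ABF. The cause was not tested. Limiting members to those with 1 KEGG entry, chosen after seeing the data, gave 45 higher and 21 lower.

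The replicate numbers did not pair the libraries (correlations of deviations between -0.147 and -0.0461 over 58283 genes), and no unshaded replicate correlated best with its own number. With the replicate number as a block 44 members were called higher and 23 lower. Among the named members it added a call for 7CG0691730 as lower (-0.43, limma adjusted p = 0.0373). Depth is unknown, so what counting error adds to genes of low FPKM, such as NCED and CYP707A in unshaded grains, could not be given.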
